A study of Rattus norvegicus with 40 samples.

Results

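Matrix metalloproteinases (MMPs) and tissue inhibitors of metalloproteinases (TIMPs) were followed through liver carcinogenesis induced by diethylnitrosamine (DEN) in the rat. The set held 10 genes of the 17337 counted, taken by gene symbol and not by level: Mmp2, Mmp7, Mmp9, Mmp12, Mmp14, Mmp15, Mmp19, Timp1, Timp2 and Timp3. Each symbol named 1 row of the count files. Messenger RNA was sequenced in 40 liver libraries from 24 male Fischer 344 rats. DEN, an alkylating liver carcinogen, was injected into the peritoneum at 50 mg/kg once a week, starting in 7-week-old animals. DEN-treated rats were sampled after 8 weeks of injections, after 14 weeks, or at 20 weeks, when 14 weeks of injections had been followed by 6 weeks without DEN. Rats of the same ages that received no DEN (no DEN) were the controls at 8, 14 and 20 weeks. Whether these rats received the olive oil vehicle is not given in the labels. Non-tumoral (NT) liver of DEN-treated rats was sampled at the 3 time points, and 2 tumor nodules (T) of each DEN-treated rat at 14 and 20 weeks. This gave 8 groups of 4 rats, and NT liver and nodules of a given week came from the same 4 rats. Both nodules of a rat were summed into 1 value, and n counts rats. Values within a group are listed by rat name: H05 to H08, H09 to H12 and H13 to H16 in no DEN liver at 8, 14 and 20 weeks, F09, F10, H17 and H18 after 8 weeks of DEN, F06, H21, H22 and H23 after 14 weeks, and F03, H25, H26 and H28 at 20 weeks. The model is 1 inbred strain and 1 sex, and each piece of tissue held all the cell types present. In such bulk samples fewer cells of a type and less RNA per cell cannot be told apart.

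MMPs are zinc-dependent proteases that are made as inactive precursors and cleave collagens, elastin and other proteins of the extracellular matrix, along with growth factors and cell surface proteins. TIMPs are small proteins that bind the active site of MMPs and block it. In fibrotic liver, stellate cells turned myofibroblasts are a known source of MMP2, TIMP1 and TIMP2, and macrophages are a known source of MMP12.

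Sequencing depth ran from 20528515 to 160622633 read pairs assigned to genes per library, with a median of 30477421. The deepest library, NT liver of rat H26 at 20 weeks, held 4.08 times the pairs of the next. Levels are given as CPM, counts scaled to 1 common library total, adjusted by trimmed mean of M values (TMM) factors, and they are compared between groups and not between genes, because transcript lengths were not used. Nodule 1 of rat F06 stood apart, with 34.5% of its read pairs in no exon. Nodule 2 of F06 had 28.2%, against at most 26.3% in the libraries of other rats. Nodule 1 of rat F03 also stood apart, with 16.3% of its read pairs mapped to several places against at most 13.2% in any other library, and with the lowest TMM factor of the nodules (0.939). A fit added after the data were seen left out nodule 1 of F06 and of F03 and kept nodule 2 of F06. In it the log2 fold changes of Mmp14 in nodules were -0.60 and -0.54 at 14 and 20 weeks and still called. That of Mmp19 at 14 weeks was -0.46 and that of Timp3 at 20 weeks was -0.47, both no longer called. That of Mmp15 at 20 weeks was 0.50 and then called. With the whole rat F06 left out, Mmp14 at 14 weeks was not called, as given below. Rats numbered with the letter F (F03, F06, F09 and F10) were all DEN-treated and had no F controls. Hepatocyte markers (8 of 8 found) summed to 236736 to 275716 CPM in no DEN liver, 144958 to 247897 in NT liver and 115760 to 183540 in nodules, and none was at 0. In nodules 6 of 8 were called lower at each week and 1 higher (Apoa1, at 0.98 and 1.31 on the log2 scale), and with library-size scaling 0 and 3 were called lower. Cholangiocyte markers (7 of 8 found, 6 tested) were called higher for 1 gene in NT liver at 8 weeks, 6 at 14 weeks and 4 at 20 weeks, and for 6 in nodules at each week. With TMM 7.29%, 13.1% and 4.89% of all genes were called higher in NT liver and 23.9% and 23.6% in nodules, where 15.2% were called lower at each week. With library-size scaling 3, 6 and 5 cholangiocyte markers were called higher in NT liver and 6 in nodules at each week. They summed to 16.4 to 23.9 CPM in no DEN liver, 29.7 to 88.3 CPM in NT liver and 66.1 to 184 CPM in nodules. The part of these shifts in the results below was not tested.

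Genes were tested with edgeR (quasi-likelihood, Benjamini-Hochberg adjustment over all genes tested) and called at the thresholds of the study. The NT threshold asked for a log2 fold change of 1 or more in either direction with an adjusted p no higher than 0.01. The tumor threshold, used for nodules, asked for 0.5 and 0.05. Mmp7 had too few counts to be tested against no DEN liver, so 9 members were tested there. In NT liver 3 of 9 were called at 8 weeks, where 7.91% of all genes were called (7.29% up), and all 3 were higher: Mmp2, Mmp12 and Timp1. At 14 weeks the same 3 genes of 9 were called, with 15.2% of all genes called (13.1% up). At 20 weeks only Mmp12 was called, with 5.22% of all genes called (4.89% up). In nodules 6 of 9 were called at 14 weeks, 4 higher and 2 lower, against 39.1% of all genes (23.9% up, 15.2% down). At 20 weeks 7 of 9 were called, 4 higher and 3 lower, against 38.8% of all genes (23.6% up, 15.2% down). Mmp2, Mmp12, Timp1 and Timp2 made up the higher genes and Mmp14 and Mmp19 the lower ones at both weeks, joined at 20 weeks by Timp3. At the tumor threshold NT liver gave 4 higher and 1 lower at 8 weeks (16.5% and 5.21% of all genes), 4 higher and 0 lower at 14 weeks (22.8% and 9.85%), and 4 higher and 1 lower at 20 weeks (14.3% and 3.82%). The median log2 fold change of the 9 members was -0.02, 0.44 and 0.19 in NT liver at 8, 14 and 20 weeks and 0.40 and 0.58 in nodules at 14 and 20 weeks, and that of all genes tested lay between -0.01 and 0.02. NT liver and nodules of a week were compared with the same no DEN rats, so their results are not independent of each other.

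**Figure D1:**
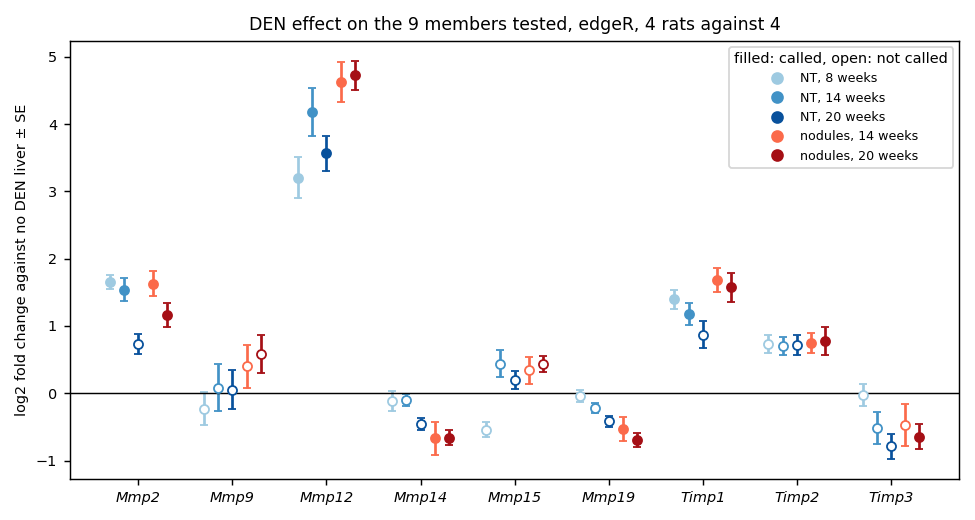
Log2 fold change (vertical axis, edgeR, with SE) of the 9 members tested, in NT liver (blue) and nodules (red) against no DEN liver of the same age, 4 rats against 4. Filled points were called at the threshold of their tissue. Mmp12 lies highest in every comparison, from 3.21 to 4.72, while Mmp14, Mmp19 and Timp3 lie below 0.

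Mmp12, the macrophage metalloelastase, showed the largest change of any member in the 5 comparisons with no DEN liver. In no DEN liver its levels were 0.450, 0.378, 0.621 and 0.668 CPM at 8 weeks, 0.603, 0.521, 0.427 and 0.299 CPM at 14 weeks and 0.328, 0.267, 0.523 and 0.336 CPM at 20 weeks. In NT liver they were 6.51, 5.46, 2.81 and 5.07 CPM at 8 weeks, 12.5, 8.23, 7.35 and 4.66 CPM at 14 weeks and 4.94, 3.79, 5.26 and 3.28 CPM at 20 weeks. In nodules they were 14.0, 14.0, 11.03 and 7.41 CPM at 14 weeks and 10.5, 8.46, 11.9 and 8.81 CPM at 20 weeks. Every DEN-treated rat was above every no DEN rat in both tissues, and the lowest DEN value was the NT liver of H17 at 8 weeks. The raw counts were 5 to 17 per no DEN library, so the folds rest on few counts in the denominator. In 4 of the 5 comparisons 1 to 3 of the 4 no DEN rats reached the filter on low counts, so Mmp12 entered those tests through the DEN-treated rats. The log2 fold change in NT liver was 3.21 (SE 0.30) at 8 weeks, 4.18 (SE 0.35) at 14 weeks and 3.57 (SE 0.26) at 20 weeks, with edgeR adjusted p of 4.38e-05, 1.77e-05 and 7.25e-05. In nodules it was 4.63 (SE 0.30) at 14 weeks and 4.72 (SE 0.22) at 20 weeks, with edgeR adjusted p of 8.96e-06 and 2.26e-06. In linear terms Mmp12 was 9.23-, 18.1- and 11.9-fold higher in NT liver and 24.8- and 26.4-fold higher in nodules. It was called under every alternative run in these 5 comparisons. Of the macrophage markers (10 of 10 found), 1 of 9 tested was called higher in NT liver at each week, 3 of 10 in nodules at 14 weeks and 3 of 9 at 20 weeks, and 0 were called lower. With TMM 7.29%, 13.1% and 4.89% of all genes were called higher in NT liver and 23.9% and 23.6% in nodules. With library-size scaling 1, 2 and 1 of these markers were called higher in NT liver at 8, 14 and 20 weeks and 5 and 6 in nodules. That scaling moved the median gene up by 0.57 and 0.50 in nodules at 14 and 20 weeks, near the tumor threshold of 0.5. Shares of all genes called with it are not given here. The summed level of the macrophage markers was 319 to 984 CPM in no DEN liver, 400.1 to 1013 CPM in NT liver and 426 to 821 CPM in nodules, ranges that overlap, and none of the 10 was at 0 in a whole group. Gpnmb, a gene of lipid-laden and tumor-associated macrophages, was the marker called in NT liver (log2 fold change 1.16, 1.58 and 1.33 at 8, 14 and 20 weeks). In nodules Gpnmb was called at 1.68 and 1.91, Trem2, a receptor of lipid-associated macrophages, at 14 weeks at 4.04 (SE 0.76), and Cd68 at 20 weeks at 0.60. Trem2 had 0 to 3 counts per no DEN rat, 26 to 128 in nodules at 14 weeks and 12 to 106 at 20 weeks, passed the filter only through the nodules at 14 weeks, and was not tested in the other 4 comparisons with no DEN liver. NT liver had 6 to 30 Trem2 counts per rat. Clec4f, Marco and Vsig4, markers of Kupffer cells in the list named here after their values were seen, were called in none of the comparisons with no DEN liver. The part of macrophage number in the Mmp12 result was not tested.

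**Figure D2:**
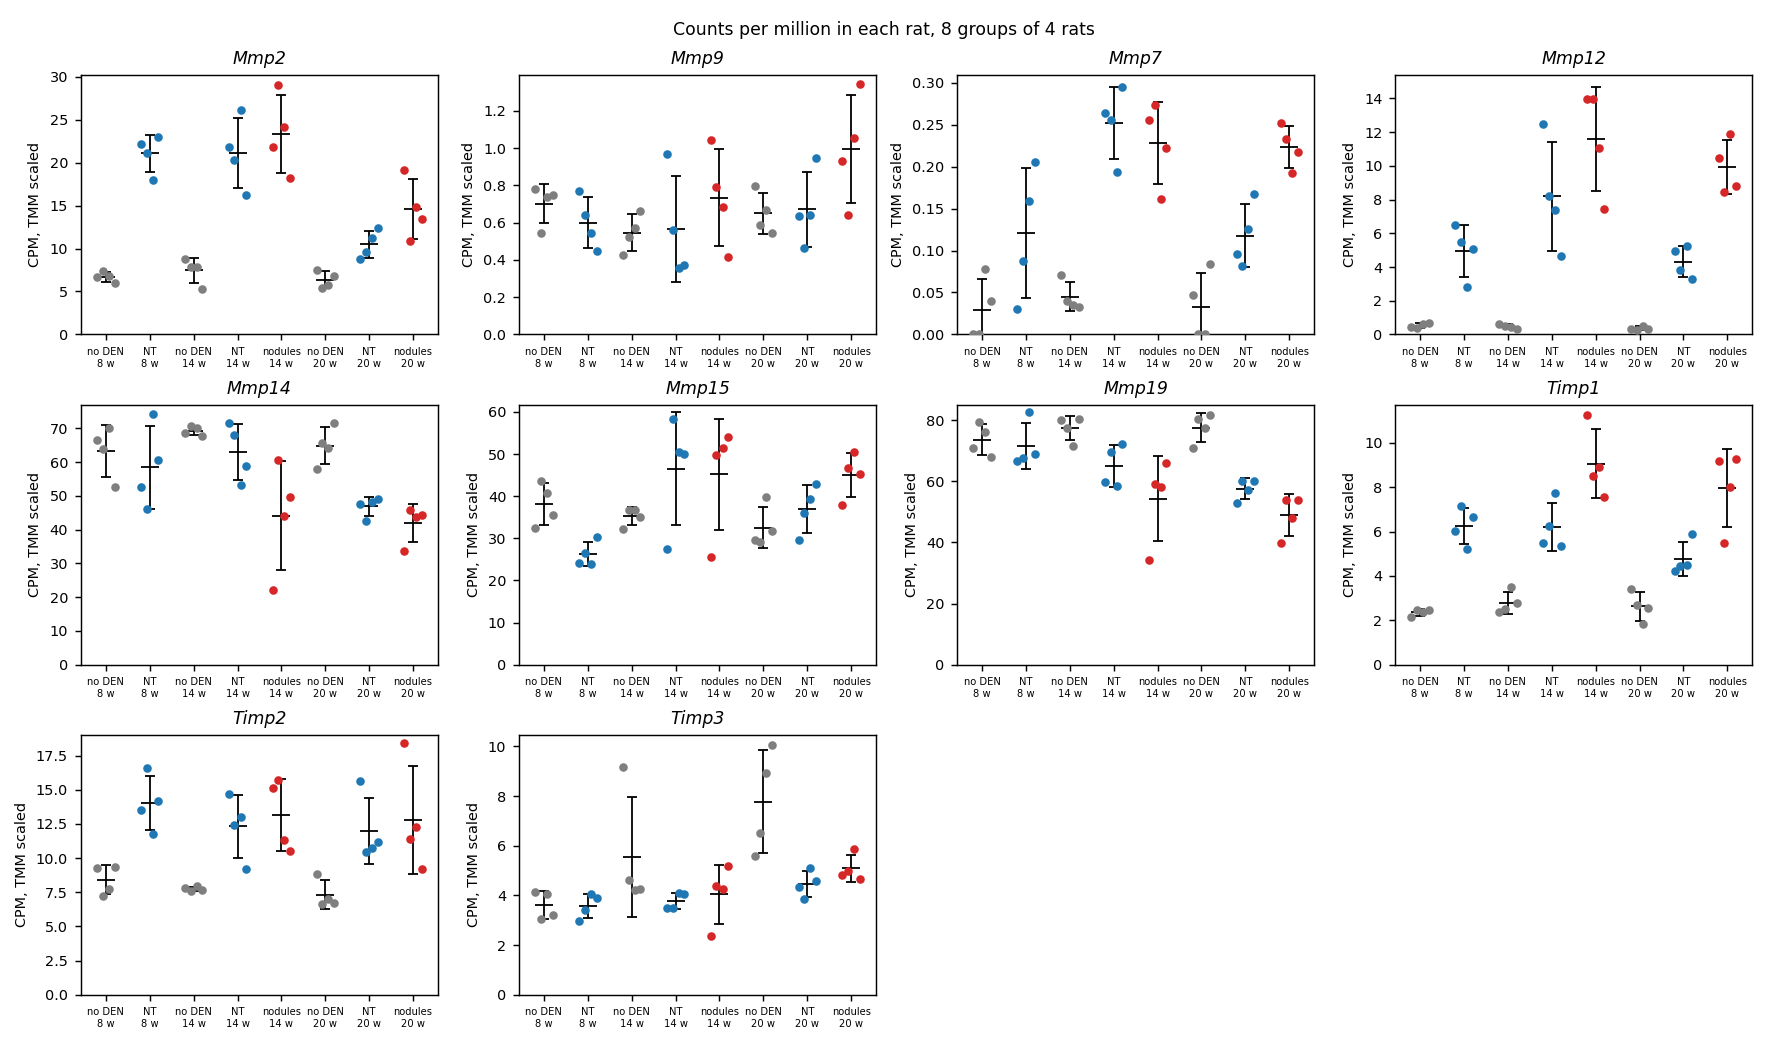
CPM (TMM scaled, vertical axes from 0, each with its own range) of the 10 members in every rat, by group: no DEN (grey), NT liver (blue) and nodules (red) at 8, 14 and 20 weeks. Bars give mean and SD of 4 rats. Mmp12 reached 2.81 CPM or more in every DEN-treated rat and 0.668 CPM or less in every no DEN rat, whereas Mmp9 overlapped between all groups.

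Mmp7, or matrilysin, a small MMP of epithelial cells, was near the limit of detection and is given as raw counts. The 4 no DEN rats had 0, 0, 2 and 1 counts at 8 weeks, 2, 1, 1 and 1 at 14 weeks and 1, 0, 0 and 2 at 20 weeks. NT liver had 1, 3, 5 and 6 counts at 8 weeks, 9, 10, 6 and 11 at 14 weeks and 3, 3, 21 and 6 at 20 weeks. The 2 nodules of each rat together had 15, 21, 12 and 17 counts at 14 weeks and 17, 16, 12 and 17 at 20 weeks. The 21 counts of NT liver at 20 weeks came from the deepest library. Per depth, the summed counts were 5.66 times higher in NT liver than in no DEN liver at 14 weeks (95% counting interval 2.22 to 18.5). In nodules they were 5.05 times higher at 14 weeks (2.06 to 16.1) and 6.33 times higher at 20 weeks (2.07 to 31.5). In these 3 comparisons the CPM did not overlap, and the exact 2-sided permutation test gave p = 0.0286, the smallest that 4 rats against 4 can give, with a value of 0.05 after Benjamini-Hochberg adjustment over the 7 comparisons made. At 8 and 20 weeks NT liver and no DEN liver overlapped, with exact permutation p of 0.0857 and 0.0571. With library-size scaling the 20-week groups did not overlap (exact permutation p = 0.0286). With no filter on low counts edgeR called Mmp7 higher in nodules, at 2.28 and 2.56 on the log2 scale (adjusted p 0.00297 and 0.00957). In NT liver at 14 weeks Mmp7 was called with no filter (2.42, edgeR adjusted p 0.00157), by DESeq2 (adjusted p 0.00730) and in 1 fit over all 8 groups (2.43). The intervals cover counting error only.

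Mmp12 and Mmp7 lie in the same row of Mmp genes on chromosome 8. Both were higher after DEN, and their promoters are shown because they alone of the windows searched held exact motif matches. This choice was made with their values known. The RefSeq promoter table (build GRCr8) held windows for 6 of the 10 members: Mmp7, Mmp12, Mmp15, Timp1, Timp2 and Timp3. The 250 bases before each start were searched on both strands for TGANTCA, the binding motif of AP-1 (the Fos and Jun family of transcription factors), and for TATAAA, the TATA box. The motifs cannot overlap each other, and a palindromic match was counted once. The AP-1 motif was found in Mmp7 and Mmp12, 2 of 6 windows, and in 6.34% of 33469 RefSeq promoters. The TATA motif was found in the same 2 windows and in 12.9% of all promoters. Timp1 and Timp2, also called higher after DEN, had no exact match to either motif, and Mmp2 had no window. Near matches, such as tgagtaa in the Timp1 window, were not counted. A link between the motifs and the rises was not tested. The Mmp12 window, chr8:12866402-12866651 on the + strand, had TGAGTCA with 80 bases and TATAAA with 33 bases between the motif and the start. The Mmp7 window, chr8:13132793-13133042 on the + strand, had TGAGTCA with 73 bases between the motif and the start, and TATAAA with 134 and with 37. Capitals mark the matches, which are letters in a reference sequence and were not measured as bound sites.
Mmp12: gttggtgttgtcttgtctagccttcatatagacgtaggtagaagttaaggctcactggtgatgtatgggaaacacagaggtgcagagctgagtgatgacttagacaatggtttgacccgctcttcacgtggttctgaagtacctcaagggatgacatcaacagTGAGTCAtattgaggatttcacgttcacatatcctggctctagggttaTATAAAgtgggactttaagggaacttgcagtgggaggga
Mmp7: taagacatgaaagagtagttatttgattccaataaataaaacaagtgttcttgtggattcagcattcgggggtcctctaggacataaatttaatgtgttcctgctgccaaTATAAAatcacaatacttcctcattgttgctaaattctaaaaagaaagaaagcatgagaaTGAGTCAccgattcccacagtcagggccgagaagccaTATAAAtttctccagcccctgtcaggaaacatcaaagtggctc

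Among the gelatinases, which digest denatured collagen and the type IV collagen of basement membranes, Mmp2 changed and Mmp9 did not pass the test. No DEN liver held 6.67, 7.34, 6.75 and 5.97 CPM of Mmp2 at 8 weeks, 8.77, 7.85, 7.87 and 5.34 CPM at 14 weeks and 7.55, 5.397, 5.71 and 6.84 CPM at 20 weeks. NT liver held 22.1, 21.2, 18.03 and 22.97 CPM at 8 weeks, 21.8, 20.3, 26.1 and 16.3 CPM at 14 weeks and 8.77, 9.64, 11.2 and 12.3 CPM at 20 weeks. Nodules held 21.8, 29.1, 24.1 and 18.2 CPM at 14 weeks and 19.2, 10.9, 14.9 and 13.4 CPM at 20 weeks. DEN-treated rats were above no DEN rats at every week without overlap, and at 20 weeks the lowest NT value (8.77 CPM, F03) lay closest to the highest no DEN value (7.55 CPM, H13). In NT liver the log2 fold change of Mmp2 was 1.65 (SE 0.10) at 8 weeks (edgeR adjusted p 4.70e-06), 1.54 (SE 0.17) at 14 weeks (7.98e-05) and 0.73 (SE 0.15) at 20 weeks (0.00537), the last below the NT threshold in size. In nodules it was 1.63 (SE 0.19) at 14 weeks (edgeR adjusted p 0.000145) and 1.16 (SE 0.18) at 20 weeks (0.000702). The difference between the NT effects at 20 and 14 weeks was -0.80 (SE 0.24), with an edgeR adjusted p of 0.112, and DESeq2 put the same difference at -0.82 with an adjusted p of 0.0396. Stellate cell and myofibroblast markers (9 of 10 found) were called higher in NT liver for 3 of 8 tested at 8 weeks, for 4 of 9 tested at 14 weeks and for 0 of 7 tested at 20 weeks, and for 5 of 9 in nodules at each week. The shares of all genes called higher with TMM are those given for the macrophage markers. With library-size scaling the counts of these markers were 4, 6 and 1 in NT liver and 6 and 5 in nodules, with no share of all genes given. Their summed level was 103 to 138 CPM in no DEN liver, 109 to 161 CPM in NT liver and 116 to 163 CPM in nodules, and no marker was at 0 in a whole group. Thy1, a surface protein of myofibroblasts and some other cells, and Lox, the collagen cross-linking lysyl oxidase, led the list at 14 weeks in NT liver with log2 fold changes of 4.16 and 2.95. The part of these cells in the Mmp2 and Timp1 results was not tested.

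Mmp9, the gelatinase of neutrophils and macrophages, lay between 0.355 and 1.34 CPM in all 32 rat-and-tissue values. The mean was 0.702 ± 0.106, 0.545 ± 0.0990 and 0.649 ± 0.111 CPM (SD, n = 4) in no DEN liver at 8, 14 and 20 weeks. NT liver had 0.599 ± 0.138, 0.565 ± 0.284 and 0.672 ± 0.201 CPM, and nodules had 0.734 ± 0.258 CPM at 14 weeks and 0.993 ± 0.290 CPM at 20 weeks. The groups overlapped in every comparison. The largest difference was that of nodules at 20 weeks, 0.58 (SE 0.28) on the log2 scale with an edgeR adjusted p of 0.106, and its interval of 2 SE ran from 0.02 to 1.14. In NT liver the intervals were -0.73 to 0.27 at 8 weeks, -0.61 to 0.78 at 14 weeks and -0.53 to 0.63 at 20 weeks, so a 1.5-fold lower level at 8 and 14 weeks and a 1.5-fold higher level at 14 and 20 weeks lay within them. Counts were 11 to 34 per library of no DEN and NT liver outside H26. Neutrophil markers were called higher for 3, 0 and 0 of 3 tested in NT liver at 8, 14 and 20 weeks. In nodules they were called higher for 1 and 0 of 3, and the shares of all genes with TMM are those given for the macrophage markers. With library-size scaling the neutrophil markers were called higher for 3, 3 and 2 in NT liver and 3 and 2 in nodules. In NT liver at 8 weeks they were led by S100a9 (2.59) and S100a8 (2.57), when the Mmp9 log2 fold change was -0.23 (SE 0.25). The summed level of the neutrophil markers was 1.48 to 5.91 CPM in no DEN liver, 4.74 to 18.7 CPM in NT liver and 3.70 to 30.8 CPM in nodules, with Mpo, Elane or Camp at 0 in at least 1 no DEN group.

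Of the membrane-type MMPs, Mmp14 fell in nodules with TMM, and it was called at neither week with library-size scaling, as given below. Mmp14, or MT1-MMP, is a collagenase of the cell surface that activates the MMP2 precursor together with TIMP2. No DEN liver held 68.6, 70.6, 69.99 and 67.7 CPM of Mmp14 at 14 weeks and 58.0, 65.8, 64.2 and 71.6 CPM at 20 weeks. Nodules held 22.2, 60.6, 44.0 and 49.8 CPM at 14 weeks, where the 22.2 CPM of F06 was lowest, and 33.7, 45.9, 43.8 and 44.3 CPM at 20 weeks, where the 33.7 CPM of F03 was lowest. At each week all nodule values lay below all no DEN values of that week. The log2 fold change was -0.67 (SE 0.25) at 14 weeks (edgeR adjusted p 0.0477) and -0.66 (SE 0.11) at 20 weeks (0.000949). Without rat F06 the 14-week value was -0.42, below the size of the tumor threshold, and of the 8 rats left out in turn only H21 left the 14-week call in place, with log2 fold changes from -0.71 to -0.42. At 20 weeks the call held without each rat, and the 20-week value without F03 was -0.55 and still called. In NT liver Mmp14 ranged over 46.0 to 74.4 CPM at 8 weeks, 53.3 to 71.7 at 14 weeks and 42.7 to 49.0 at 20 weeks, and it was called at no week, although at 20 weeks all 4 rats were below the no DEN rats (log2 fold change -0.46 (SE 0.09), edgeR adjusted p 0.00367).

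Mmp15, or MT2-MMP, another membrane-bound MMP, differed in direction between weeks in NT liver. No DEN liver held 32.4, 43.7, 40.9 and 35.5 CPM at 8 weeks and 32.3, 36.7, 36.8 and 35.1 CPM at 14 weeks. NT liver held 24.2, 26.6, 23.9 and 30.3 CPM at 8 weeks and 27.4, 58.3, 50.6 and 50.0 CPM at 14 weeks. At 8 weeks all DEN-treated rats were below all no DEN rats, and at 14 weeks H21, H22 and H23 were above them while F06 was below. The log2 fold change was -0.54 (SE 0.11) at 8 weeks (edgeR adjusted p 0.00355), lower at the tumor threshold only, and 0.44 (SE 0.20) at 14 weeks (0.0926). The interaction of treatment and week was 0.98 (SE 0.24) with an edgeR adjusted p of 0.0209, and 8.96% of all genes were called in that test. Mmp15 was the only member called there, 1 of 9. It was 1.16 without F06 (edgeR adjusted p 0.000108) and 0.82 without H21 (0.0526), where the call was lost. The call was also lost in 1 fit over all 8 groups, at 0.95 (edgeR adjusted p 0.0618). In nodules Mmp15 ranged over 25.7 to 53.9 CPM at 14 weeks, with F06 again lowest, and 38.0 to 50.6 CPM at 20 weeks against 29.1 to 39.7 CPM in no DEN liver. The 20-week log2 fold change of 0.44 (SE 0.12) was just short of the threshold in size (edgeR adjusted p 0.0112), and without F03 it was 0.53 and called.

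Mmp19, a secreted MMP found in many resting tissues, was lower in nodules with TMM, and it was called at neither week with library-size scaling. No DEN liver held 80.2, 77.5, 71.7 and 80.5 CPM at 14 weeks and 70.9, 80.4, 77.4 and 81.6 CPM at 20 weeks. Nodules held 34.3, 59.1, 58.2 and 65.9 CPM at 14 weeks and 39.7, 54.1, 48.0 and 54.0 CPM at 20 weeks. At each week all nodules lay below the no DEN livers of that week, with F06 and F03 lowest at their weeks. The log2 fold change was -0.53 (SE 0.17) at 14 weeks (edgeR adjusted p 0.0300) and -0.69 (SE 0.11) at 20 weeks (0.000669). Without F06 the 14-week value was -0.34 and no longer called, and of the 8 rats left out in turn only H11 and H23 left the 14-week call in place. At 20 weeks the call held without each rat. In NT liver the log2 fold change was -0.05 (SE 0.09), -0.22 (SE 0.08) and -0.42 (SE 0.08) at 8, 14 and 20 weeks, and none was called. At 20 weeks its NT livers (53.0 to 60.2 CPM) also lay below the no DEN livers (70.9 to 81.6 CPM).

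The 3 lower genes depended on how libraries were scaled. TMM factors were 0.786 to 0.856 in no DEN libraries, 0.875 to 1.17 in NT libraries and 0.939 to 1.34 in nodules. With scaling by library size alone, the median log2 fold change of all genes shifted up by 0.57 in nodules at 14 weeks and by 0.50 at 20 weeks, and by 0.20, 0.42 and 0.22 in NT liver at 8, 14 and 20 weeks. On that scale Mmp14 was at -0.09 and -0.15 in nodules at 14 and 20 weeks, Mmp19 at 0.04 and -0.19, and Timp3 at 0.09 and -0.13, and none was called. Mmp9 and Mmp15, not called under TMM, were then called higher in nodules at both weeks, with 0.97 and 1.10 for Mmp9 and 0.91 and 0.94 for Mmp15. Mmp19 and Timp3 thus turned their sign at 14 weeks in nodules. In NT liver Mmp14 and Mmp19 turned to 0.32 and 0.21 at 14 weeks, and Mmp14, Mmp19 and Timp3 to 0.09, 0.15 and 0.18 at 8 weeks, none of them called on either scale. Between nodules and NT liver at 20 weeks Mmp14 and Mmp19 turned to 0.08 and 0.01, again called on neither scale. The falls of Mmp14, Mmp19 and Timp3 are falls relative to the median gene, whereas Mmp2, Mmp12, Timp1 and Timp2 were called higher in nodules on both scales. DESeq2's median-ratio factors moved the median of all genes by at most 0.02 from TMM. Shares of all genes called are given with TMM only, here and in the lists above and below. The counts of list genes called with library-size scaling therefore have no share beside them.

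**Figure D3:**
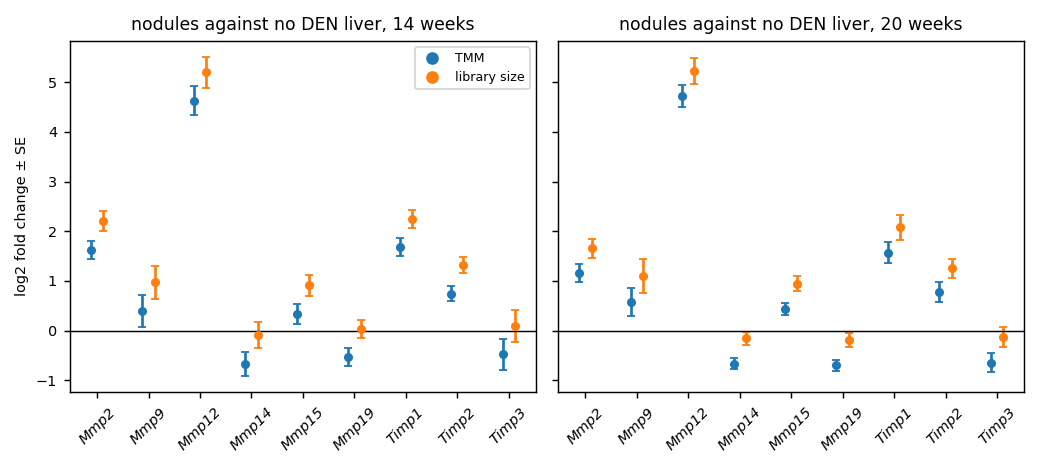
Log2 fold change with SE of 9 members in nodules against no DEN liver at 14 weeks (left) and 20 weeks (right), 4 rats against 4, with TMM scaling (blue) and library-size scaling (orange). Mmp14, Mmp19 and Timp3 lie below 0 under TMM and between -0.19 and 0.09 under library-size scaling, and Mmp12 lies above 4.6 under both.

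Timp1, the secreted inhibitor most used as a marker of liver fibrosis, rose in both tissues. No DEN liver held 2.13, 2.48, 2.37 and 2.48 CPM at 8 weeks, 2.38, 2.52, 3.49 and 2.79 CPM at 14 weeks and 3.42, 2.67, 1.85 and 2.56 CPM at 20 weeks. NT liver held 6.02, 7.15, 5.23 and 6.64 CPM at 8 weeks, 5.49, 6.23, 7.74 and 5.36 CPM at 14 weeks and 4.24, 4.45, 4.49 and 5.90 CPM at 20 weeks. Nodules held 11.3, 8.53, 8.91 and 7.57 CPM at 14 weeks and 9.18, 5.49, 8.01 and 9.27 CPM at 20 weeks. No DEN-treated rat overlapped with the no DEN rats of its week. In NT liver the log2 fold change of Timp1 was 1.40 (SE 0.14) at 8 weeks (edgeR adjusted p 6.93e-05), 1.18 (SE 0.17) at 14 weeks (0.000185) and 0.87 (SE 0.20) at 20 weeks (0.00942), the last below the NT threshold in size. In nodules it was 1.68 (SE 0.18) at 14 weeks (edgeR adjusted p 9.50e-05) and 1.57 (SE 0.22) at 20 weeks (0.000394).

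Timp2, which inhibits MMPs and takes part in MMP2 activation, moved by less and by a nearly even amount. Its mean was 8.41 ± 1.05, 7.75 ± 0.159 and 7.32 ± 1.04 CPM (SD, n = 4) in no DEN liver at 8, 14 and 20 weeks. NT liver had 14.0 ± 1.98, 12.3 ± 2.28 and 11.99 ± 2.44 CPM, and nodules 13.2 ± 2.64 and 12.8 ± 3.95 CPM at 14 and 20 weeks. All 5 comparisons with no DEN liver were without overlap, and F03 was highest in both tissues at 20 weeks. The log2 fold change lay between 0.70 and 0.78 in the 5 comparisons, with edgeR adjusted p from 0.00100 to 0.0104. With TMM it passed the tumor threshold in all 5 and the NT threshold in none. With library-size scaling it passed the NT threshold in NT liver at 14 weeks, at 1.12 (edgeR adjusted p 2.51e-05).

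Timp3, the inhibitor held in the extracellular matrix, which also blocks ADAM proteases, was higher in untreated rats at 20 weeks than at 8 weeks. No DEN liver held 4.13, 3.06, 4.07 and 3.22 CPM at 8 weeks, 9.16, 4.61, 4.20 and 4.25 CPM at 14 weeks and 5.58, 6.52, 8.94 and 10.1 CPM at 20 weeks. NT liver held 2.98, 3.41, 4.05 and 3.90 CPM at 8 weeks, 3.49, 3.501, 4.10 and 4.04 CPM at 14 weeks and 4.34, 3.85, 5.10 and 4.56 CPM at 20 weeks. Nodules held 2.37, 4.37, 4.28 and 5.18 CPM at 14 weeks and 4.83, 4.997, 5.89 and 4.66 CPM at 20 weeks. All 4 untreated livers at 20 weeks were above all 4 at 8 weeks, and the 9.16 CPM of H09 stood alone at 14 weeks. In a comparison added after the data were seen, untreated liver at 20 weeks against 8 weeks gave a log2 fold change of 1.11 (SE 0.19) with an edgeR adjusted p of 0.0352, and 0.374% of all genes were called there. No other member was called in it. In untreated liver Timp3 had 0.60 (SE 0.26) at 14 against 8 weeks (edgeR adjusted p 0.490). At 20 against 14 weeks it had 0.50 (SE 0.30, edgeR adjusted p 0.851), and neither was called. Against no DEN liver of the same age, the log2 fold change of Timp3 was -0.79 (SE 0.19) in NT liver at 20 weeks (edgeR adjusted p 0.0108), lower at the tumor threshold only, and -0.64 (SE 0.19) in nodules (0.0147). Nodules overlapped with no DEN livers at 20 weeks, and the nodule value was -0.50 without the no DEN rat H16 (edgeR adjusted p 0.0505) and -0.38 with nodule 2 alone (0.163), neither of which was called. With library-size scaling the nodule value was not called either.

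Nodules were also set against NT liver of the same rats. Without the rat as a block, 0 of 10 members were called at 14 weeks and 0 of 10 at 20 weeks by edgeR, where 0% of all genes were called at either week. At an unadjusted p of 0.05, 1 of 10 members passed at 14 weeks, where 11.8% of all genes did, and 5 of 10 at 20 weeks, where 24% did. DESeq2 called 0 and 2 members. Same-numbered samples were the same animal, and with the rat as a block edgeR called 2 of 10 members at 20 weeks, where 14.7% of all genes were called (9.21% up), and both were higher in nodules. At 14 weeks it called 0 of 10 members and 0% of all genes. In the same blocked test cell type markers were called too. Krt19 and Sox9 of the cholangiocyte list were higher by 2.08 and 1.41, Thy1 of the stellate cell list by 1.48, and Trem2 and Gpnmb of the macrophage list by 1.26 and 0.62 on the log2 scale. Marco and Vsig4, markers of Kupffer cells, were at -0.81 and -0.50, and 4 of 8 hepatocyte markers were lower. Their part in the member results was not tested. Mmp12 was higher by 1.18 (SE 0.10) on the log2 scale at 20 weeks (edgeR adjusted p 5.91e-06 with the block, 0.0949 without it), in 4 of 4 rats. Timp1 was higher by 0.70 (SE 0.13) at 20 weeks (edgeR adjusted p 0.00157 with the block, 0.101 without it), also in 4 of 4 rats. At 14 weeks the blocked values were 0.52 (SE 0.12) for Mmp12 (edgeR adjusted p 0.167) and 0.52 (SE 0.15) for Timp1 (0.180), again higher in 4 of 4 rats. Mmp14 had -0.61 (SE 0.27) at 14 weeks, lower in 4 of 4 rats, with an edgeR adjusted p of 0.242. At 20 weeks the blocked values were -0.27 (SE 0.08) for Mmp19 (edgeR adjusted p 0.0160) and 0.27 (SE 0.08) for Mmp15 (0.0221). Both were below the size of the tumor threshold and not called. Mmp7 at 20 weeks was 1.84 times higher per depth in nodules (95% counting interval 1.19 to 2.89, exact permutation p = 0.0286 without regard to the pairing, 0.05 adjusted over the 7 comparisons). With the rat as a block edgeR did not call it, at 0.83 (SE 0.38) on the log2 scale (adjusted p 0.122 with the block, 0.142 without it).

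**Figure D4:**
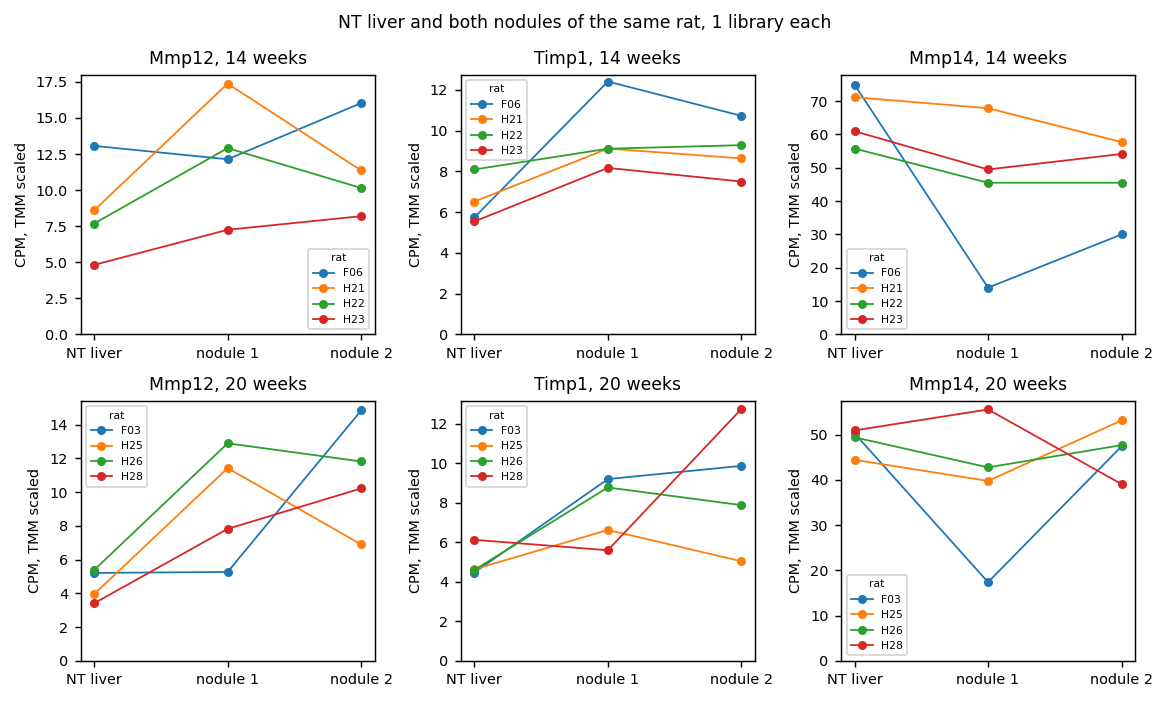
CPM (TMM scaled over single libraries, vertical axis from 0) of Mmp12, Timp1 and Mmp14 in NT liver, nodule 1 and nodule 2 of each rat at 14 weeks (top) and 20 weeks (bottom), 1 line per rat. Nodule 1 of F06 (14.0 CPM) and nodule 1 of F03 (17.4 CPM) hold the lowest Mmp14.

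Nodules of 1 rat could differ as much as rats did. The ratio of the larger to the smaller nodule value, taken over the 4 rats, had a median of 1.30 for Mmp12 at 14 weeks and 1.48 at 20 weeks. For Timp1 the median ratio was 1.07 at 14 weeks and 1.21 at 20 weeks, with 2.28 in H28, where nodule 1 held 5.60 CPM and nodule 2 held 12.7 CPM. Rat F03 had the widest pairs of several genes. Its nodule 1 held 11.8 CPM of Mmp2, 5.27 CPM of Mmp12, 17.4 CPM of Mmp14 and 1.57 CPM of Timp3. Its nodule 2 held 25.6, 14.8, 47.4 and 7.42 CPM of the same genes. Nodule 1 of F03 was thus the lower of the pair in all 4. Nodule 1 of F06 held 14.0 CPM of Mmp14 and 1.75 CPM of Timp3, against 30.0 and 2.99 CPM in nodule 2.

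After 6 weeks without DEN, no member had a DEN effect that edgeR called different from that at 14 weeks with TMM scaling. In NT liver 0 of 9 were called, with 0.738% of all genes called. At an unadjusted p of 0.05, 2 of 9 members and 17% of all genes passed, and DESeq2 called 1 member (Mmp2, above). With library-size scaling edgeR called Mmp14, at -0.55 (adjusted p 0.0317) against -0.35 with TMM (0.165). In nodules 0 of 10 were called, with 0.0862% of all genes called, and 0 by DESeq2. At an unadjusted p of 0.05, 0 members and 3.26% of all genes passed. The NT difference was -0.61 (SE 0.51) for Mmp12 and -0.31 (SE 0.26) for Timp1 on the log2 scale. In nodules the difference was 0.08 (SE 0.40) for Mmp12, with an interval of 2 SE from -0.72 to 0.89, so changes of over 1.5-fold in either direction lay within it.

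Of the other MMP and TIMP genes listed, 16 of 18 were found (Mmp1b and Mmp25 were not analysed here). None was called lower than in no DEN liver. In NT liver at 8, 14 and 20 weeks 1 of 6, 3 of 7 and 2 of 6 genes tested were called higher, and in nodules 6 of 9 at each week. Of all genes 7.29%, 13.1% and 4.89% were called higher in NT liver and 23.9% and 23.6% in nodules. With library-size scaling 2, 4 and 2 of these genes were called higher in NT liver and 7 in nodules at each week. Of the genes tested, Mmp11 at 8 weeks, Mmp27 at 14 and 20 weeks and Mmp24 at 20 weeks in NT liver, and Mmp20, Mmp27 and Mmp28 in nodules at both weeks, reached the filter on low counts in 0 of the 4 no DEN rats. They passed it only through the DEN-treated rats, Mmp11 and Mmp24 did so in part in other comparisons, and these counts of calls are therefore no support. Mmp24, a membrane-type MMP, had 9, 8, 11 and 14 counts per no DEN rat and 25 to 51 in NT liver at 14 weeks, and 2, 6, 3 and 4 against 17 to 126 at 20 weeks. Mmp23, a membrane-linked MMP, was called in NT liver at 8 weeks with 1.97 (SE 0.25, edgeR adjusted p 0.000300) and at 14 weeks with 1.32, and in nodules with 1.81 and 1.16 at 14 and 20 weeks.

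The 2 largest rises of that list in nodules were those of Mmp20 and Mmp27. Mmp20, or enamelysin, known from tooth enamel, had 0 counts in all 12 no DEN libraries. It had 2 counts in all in NT liver at 8 weeks, 54 at 14 weeks and 42 at 20 weeks. In nodules it had 177 and 109, with 17 or more in each rat. Against a floor of 3 counts over the 4 no DEN rats, Mmp20 was at least 22.9-fold higher in nodules at 14 weeks and at least 11.1-fold at 20 weeks, and in NT liver it was tested at no week. Mmp27 had 2, 3 and 0 counts over the no DEN rats of 8, 14 and 20 weeks, 42, 144 and 113 in NT liver, and 313 and 148 in nodules. Per depth it was 37.8 times higher in NT liver at 14 weeks (95% counting interval 12.7 to 185), 40.6 times higher in nodules at 14 weeks (13.8 to 198), and at least 15.1-fold higher in nodules at 20 weeks. All DEN-treated rats had more Mmp27 counts than any no DEN rat, with 8 as the lowest and 2 as the highest. Mmp8, the neutrophil collagenase, was too low to be tested against no DEN liver. Per depth it was 6.14 times higher in NT liver at 8 weeks (95% counting interval 2.79 to 15.97), 1.95 times at 14 weeks (1.12 to 3.51) and 3.09 times at 20 weeks (1.42 to 7.97), and in nodules 2.05 times higher at 14 weeks (1.24 to 3.54) and 3.55 times at 20 weeks (1.64 to 9.10). Its CPM did not overlap with no DEN liver at 8 weeks and overlapped in the other 4 comparisons. The intervals of Mmp27 and Mmp8 cover counting error only and not the spread between rats. In nodules at 14 weeks F06 held 59 of the 100 Mmp8 counts. It had 1.01 CPM there, the other rats 0.161 to 0.195 CPM and the no DEN rats 0.0801 to 0.232 CPM. In NT liver at 14 weeks F06 held 24 of the 47 Mmp8 counts.

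**Figure D5:**
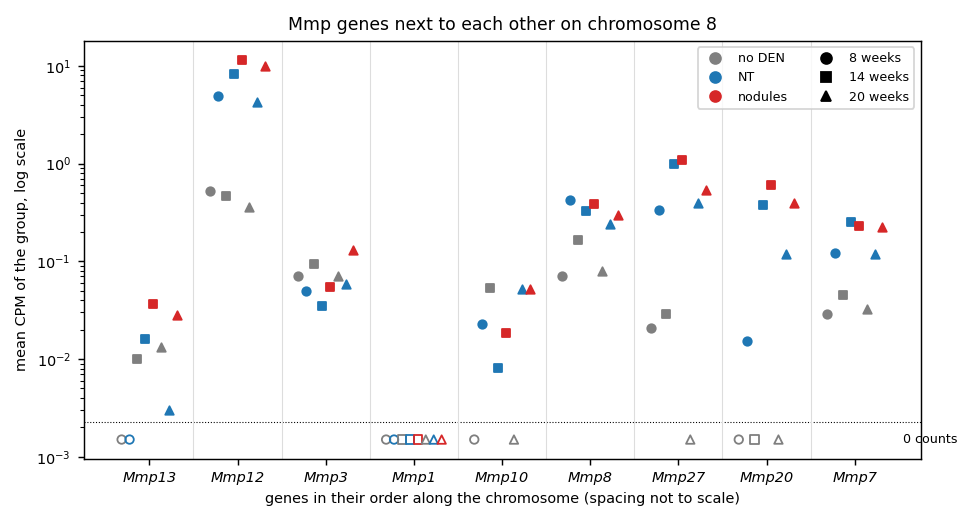
Mean CPM of 4 rats (logarithmic vertical axis) of the 9 Mmp genes found of the 10 that lie next to each other on chromosome 8 in RefSeq GRCr8, in their order, in no DEN liver (grey), NT liver (blue) and nodules (red). Open symbols below the dotted line are groups with 0 counts. Mmp12, Mmp27, Mmp20 and Mmp7 have higher means in NT liver and nodules at 14 and 20 weeks than in no DEN liver. Those of Mmp8 are higher too, with values that overlap between the groups at these weeks, and Mmp1 had 0 counts everywhere. Values of Mmp7 overlap between NT liver and no DEN liver at 20 weeks.

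Genes that activate or clear MMPs were called in both directions. In nodules 9 of 17 rose and 6 fell at 14 weeks, and 7 rose and 5 fell at 20 weeks, where 23.9% and 23.6% of all genes rose and 15.2% fell at each week. With library-size scaling 11 rose and 2 fell at each week. In NT liver 3 rose at 8 weeks, 4 rose and 1 fell at 14 weeks, and 2 rose at 20 weeks, where 7.29%, 13.1% and 4.89% of all genes rose. With library-size scaling 6, 8 and 2 rose in NT liver and none fell. The median log2 fold change of the list was 0.58 and 0.16 in nodules at 14 and 20 weeks. Plaur, the urokinase receptor, had log2 fold changes of 2.46 in NT liver and 2.98 in nodules at 14 weeks. Cd44, a hyaluronan receptor that docks MMPs at the cell surface, had 2.66 in nodules at 20 weeks. Among the genes that fell in nodules, Lrp1, the receptor that takes up MMPs and TIMPs, had -1.37 at 14 weeks and -1.06 at 20 weeks, and Pcsk5, a proprotein convertase, had -1.58 and -1.41.

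Matrix substrates were called mostly higher, as all genes were. Of 18 listed, 13 were found and 12 tested. In NT liver 6 of 12 were called higher at 8 weeks, 6 at 14 weeks and 1 at 20 weeks, and in nodules 8 at 14 weeks and 7 at 20 weeks. Of all genes 7.29%, 13.1% and 4.89% were called higher in NT liver and 23.9% and 23.6% in nodules. With library-size scaling 8, 9 and 5 of the substrates were called higher in NT liver and 11 in nodules at each week. Col1a1, the main fibrillar collagen chain, had log2 fold changes of 1.94 in NT liver and 2.63 in nodules at 14 weeks. Eln, or elastin, the substrate that gives MMP12 its name of elastase, had 1.81 and 2.31 in the same comparisons. Fn1, or fibronectin, which hepatocytes secrete into plasma, fell in nodules by 1.19 at 14 weeks and by 0.92 at 20 weeks on the log2 scale, and the latter call was lost with library-size scaling (-0.43). The median log2 fold change of the 12 substrates was 1.00, 1.42 and 0.62 in NT liver at 8, 14 and 20 weeks. ADAM and ADAMTS proteases were called for 2, 3 and 0 of 15 genes in NT liver, all higher, and in nodules for 6 higher and 1 lower at 14 weeks and 4 higher and 1 lower at 20 weeks. With library-size scaling 4, 6 and 1 of them were called higher in NT liver and 10 in nodules at each week. Adamts2, the procollagen peptidase, had 1.49 in NT liver and 1.59 in nodules at 14 weeks. Endothelial markers (7 tested) were called higher for 0, 5 and 0 genes in NT liver at 8, 14 and 20 weeks and for 6 in nodules at each week, and T and B cell markers for 4 of 6, 1 of 4 and 0 of 5 in NT liver and for 4 and 3 of 6 in nodules at 14 and 20 weeks. None of either list was called lower. With library-size scaling the endothelial counts were 4, 5 and 2 in NT liver and 7 in nodules at each week, and the T and B cell counts 5, 2 and 2 in NT liver and 4 and 5 in nodules.

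The genes whose log2 CPM ran closest to each member over the 32 rat-and-tissue values are given as a description, since all values share the contrast of treated and untreated rats and some share a rat. Pearson's r was highest with Ptpn13 (0.976), Cd276 and Blnk for Mmp12, and with Col3a1 (0.967), Cpxm1 and Cpz for Mmp2. For Timp1 it was highest with Tmsb10 (0.970), Tagln2 and S100a6, and for Timp2 with Lyz2 (0.917), Coro1a and Tmem173. Mmp14 lay close to Xiap (0.899) and Slc6a6, and Mmp19 to Pgpep1 (0.923) and Rprd1b. Mmp15 lay closest to Fbxw8 (0.878), Tecpr1 and Pigt, and Mmp7 to Serpinb9 (0.896), Tfcp2l1 and Ttc26. Mmp9 and Timp3 had no close neighbour, with 0.694 for Rhog, followed by Nfkbil1 and Efhd2, and 0.747 for Poglut1, followed by Cul2 and Gmps. Between members, r was highest for Mmp12 with Timp1 (0.916) and Mmp14 with Mmp19 (0.893), and lowest for Mmp12 with Mmp19 (-0.73).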

How the data were processed

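Poly(A) RNA of rat liver was sequenced as stranded paired-end libraries. The authors aligned the reads with STAR 2.7.1a to rn6 and counted read pairs per gene with HTSeq (reverse strand), and the deposited values are raw counts per gene, 1 file per library, with no normalization. Between 32.8% and 45.4% of read pairs per library lay in HTSeq's summary lines, which name no gene and were left out. Precision follows the 20528515 to 160622633 assigned pairs. Counts of both nodules of a rat were added. edgeR 4.0.16 in R 4.3.3 (filterByExpr, TMM, robust quasi-likelihood fit of the 2 groups compared, Benjamini-Hochberg over all genes tested) gave fold changes. SE is the log2 fold change over the root of F. The fit was tested on simulated data. Rats were the replicates. Deviations from the group means correlated between both tissues of each rat (r of 0.368 to 0.545), and the rat, being 1 animal, pairs them. All 10 members are described. From each list the 2 largest rises and 2 largest falls called were eligible to be named, and per member the 3 closest genes by Pearson's r (log2 CPM, prior count 2), of which some are not reported here. Members and lists were chosen with earlier results of these data known. Alternatives were DESeq2 1.42.0, RLE scaling, library-size scaling (added after the data were seen), no filter, 1 fit over 8 groups, the rat block, single nodules, H rats only and each rat left out. Promoters were searched with Python, and figures drawn with matplotlib.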

Additional observations from a re-analysis of the deposited data

Results flagged for a closer look

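For each member, groups of 4 rats and groups of 8 nodules, 100 groups in all, were searched for a highest or lowest value set far from the rest (Dixon's test at the 95% level), and 11 values stood out, where chance gives about 1 in 20 groups. Of these, 6 came from rat F03 at 20 weeks. Its nodule 2 held 25.6 CPM of Mmp2 (other nodules at most 16 CPM) and 22.8 CPM of Timp2 (8.60 to 14.0 CPM). Its nodule 1 held 17.4 CPM of Mmp14 (39.04 to 55.5 CPM) and 1.57 CPM of Timp3 (4.69 to 7.42 CPM). With both nodules added, F03 held 33.7 CPM of Mmp14 (other rats 43.8 to 45.9 CPM), and its NT liver held 15.6 CPM of Timp2 (10.5 to 11.2 CPM). Rat F06 held 25.7 CPM of Mmp15 in nodules at 14 weeks (49.9 to 53.9 CPM). Rat H17 held 82.7 CPM of Mmp19 in NT liver at 8 weeks (66.7 to 68.9 CPM), and H28 held 5.90 CPM of Timp1 in NT liver at 20 weeks (4.24 to 4.49 CPM). Among untreated rats, H09 held 9.16 CPM of Timp3 at 14 weeks (4.20 to 4.61 CPM) and H13 held 8.87 CPM of Timp2 at 20 weeks (6.68 to 7.04 CPM). The DEN effect on Mmp15 in NT liver differed between 14 and 8 weeks by 0.98 on the log2 scale in a test of the difference itself, a call lost without H21 and in 1 fit over all 8 groups.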

How the results depend on the processing

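The counts of called members in nodules against no DEN liver stayed within 1.5 times of 6 and 7 under the alternatives run, but the genes called did not all stay the same. With library-size scaling Mmp14 and Mmp19 lost their calls at both weeks and Timp3 at 20 weeks. Mmp9 and Mmp15 were then called higher at both weeks, and no member was called lower. NT liver gave 5 called members at 8 weeks and 5 at 20 weeks at the tumor threshold, and 2 at 20 weeks with library-size scaling. For nodules against NT liver at 20 weeks, 2 members were called (0 without the block) by DESeq2, by 1 fit over all 8 groups and with the rat as replicate block, and 0 to 2 when 1 rat was left out, with 2 without H25. The block changed no call at 14 weeks. For the DEN effect in NT liver at 14 against 8 weeks, where Mmp15 was the member called, 0 were called in 1 fit over all 8 groups and 0 to 1 when 1 rat was left out (0 without H21). At 20 against 14 weeks, DESeq2 called 1 (Mmp2) and library-size scaling 1 (Mmp14, -0.55). With library-size scaling Mmp19 turned to 0.21 in NT liver and 0.038 in nodules at 14 weeks, and to 0.0052 between nodules and NT liver at 20 weeks, where all log2 fold changes shifted with the median gene. Leaving out nodule 1 of F06 and F03, chosen after seeing the data, ended the calls of Mmp19 at 14 weeks (-0.46) and Timp3 at 20 weeks (-0.47) and added that of Mmp15 at 20 weeks (0.50). Mmp7 had too few counts to pass the filter against no DEN liver. With H rats only, 5 and 8 members were called in nodules at 14 and 20 weeks. The p-values rest on 4 rats a group.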
